A study of Homo sapiens with 6 samples.

Results

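The genes described here are 31 genes of the integrated stress response, listed by symbol (its kinases, ATF4, CHOP, C/EBP factors and targets), out of 26255 gene symbols measured. They were read in 6 messenger RNA libraries of HCT116, an established human colorectal carcinoma line, 3 labelled ZsGreen-negative and 3 labelled ZsGreen-positive. The study concerns colorectal cancer cells transduced with the degron of ornithine decarboxylase, a protein signal read directly by the proteasome, and ZsGreen is a green fluorescent protein. The labels give the groups by fluorescence alone and do not say whether the ZsGreen-negative cells carried the construct, whether either group was 1 clone, or any drug or time. The comparison asks how the transcripts of this pathway differed between the groups.

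In the integrated stress response, kinases that sense different kinds of stress add a phosphate to the translation initiation factor eIF2. Most protein synthesis then slows while the messenger RNA of the transcription factor ATF4 is translated more, so the level of ATF4 transcripts alone does not show how much ATF4 protein is made. ATF4 pairs with C/EBP proteins at a composite DNA element called CARE and switches on genes for amino acid synthesis, amino acid uptake and the charging of tRNA, together with CHOP (DDIT3), a factor tied to cell death under lasting stress. Subunits of protein phosphatase 1 remove the phosphate and close the loop.

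The CARE element, as the letters TGATGNAA on either strand, was looked for from 250 bases before to 50 bases after each RefSeq transcription start (GRCh38.p14). Promoters were found for 25 of the 31 genes, and 7 of these genes (28.0%) held a match, against 4.46% of 27305 gene symbols in the same table. Genes of this set are in part known for this element, so the share describes the set and tests nothing. The stretches that hold the match are shown because they come from genes that went opposite ways or were close to absent in these cells. Each runs 5′ to 3′ on the strand of its gene, with the match in capitals, and TTGCATCA is the same element read on the other strand.
ASNS: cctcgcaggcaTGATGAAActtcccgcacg
CEBPG: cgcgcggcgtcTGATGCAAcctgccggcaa
PPP1R15B: cccgccccggcTGATGCAAcctcacgctgc
JDP2: atagccggggcTGATGCAAcccgtccc
CHAC1: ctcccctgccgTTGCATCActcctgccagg
FGF21: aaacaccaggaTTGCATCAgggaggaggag
BCAT1: tgtcttcctgcTGATGCAAtccgctaggtc
The ASNS stretch lies at chr7:97872458-97872487 on the minus strand, with the match at bases -68 to -61, where -1 is the base just before the start. Coordinates here are GRCh38.p14, whereas the expression values were made on hg19. That of CEBPG lies at chr19:33374060-33374089 on the plus strand (-42 to -35), and that of PPP1R15B at chr1:204412026-204412055 on the minus strand (-227 to -220). That of JDP2 lies at chr14:75427995-75428021 on the plus strand (-16 to -9), and that of CHAC1 at chr15:40953251-40953280 on the plus strand (-209 to -202). That of FGF21 lies at chr19:48755459-48755488 on the plus strand (-54 to -47), and that of BCAT1 at chr12:24949131-24949160 on the minus strand (-48 to -41). In the GENCODE annotation of the same build, the stretches of ASNS, CHAC1 and BCAT1 also fall on an exon of another transcript of the gene. ASNS, CEBPG, PPP1R15B and JDP2 fell in ZsGreen-positive libraries, CHAC1 rose, and FGF21 and BCAT1 were too low to test. The cyclic AMP response element TGACGTCA was found in 1 of the 25 genes, PPP1R15A, and in 2.25% of all symbols.

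Levels are given in FPKM, fragments scaled to 1000000 mapped fragments and to transcript length in kilobases, so that levels of different genes can be compared. Log2 fold changes are ZsGreen-positive minus ZsGreen-negative on the log2(FPKM + 1) scale, which understates changes of low genes, and are given with their SE. Means are given with their SD over n = 3 libraries per group. The estimated depth was 10.1 to 10.5 M fragments in ZsGreen-negative and 12.8 to 14.4 M in ZsGreen-positive libraries, under an assumed fragment length of 150 nt. For ZsGreen-positive replicates 2 and 3 the estimate rests on only 115 and 77 low genes, against 287 to 414 in the other libraries. Despite the higher estimates, ZsGreen-positive libraries listed more symbols at 0 FPKM: 10314, 11624 and 11989, against 8985 to 9162 in ZsGreen-negative libraries. ZsGreen-positive replicates 2 and 3 stood apart: 13.0% and 15.6% of their lowly expressed single-transcript genes were at about 1 fragment, against 31.4% to 40.6% in the other 4 libraries. Colorectal epithelial markers summed to 4243 to 4310 FPKM in ZsGreen-negative and 3146 to 3578 FPKM in ZsGreen-positive libraries, with VIL1, CDH17 and LGALS4 under 1 FPKM in every library. KRT8, KRT18 and KRT19 made up most of this sum, and the markers did not move together. With limma at an adjusted p under 0.05, KRT8, KRT18 and CDH1 fell, EPCAM and CDX2 rose and KRT19 did not pass. Mean CDH1 went from 49.9 to 17.4 FPKM, EPCAM from 129.2 to 147.1 and CDX2 from 4.47 to 6.99. Markers of leukocytes summed to at most 4.13 FPKM, those of fibroblasts to at most 2.50 and those of endothelium to at most 0.310. Sample titles follow a different naming scheme in each group, so any handling that changed along with fluorescence cannot be told apart from it. Nothing in the labels ties the libraries to separate cultures, and p-values therefore reflect library-to-library spread alone, possibly technical. In bulk RNA, fewer cells that express a gene and less RNA of it per cell cannot be told apart.

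The genes did not move in 1 direction. CHOP transcripts were about 4-fold higher in ZsGreen-positive libraries and CHAC1 about 2-fold higher, while ATF4 itself was nearly level and the best known ATF4 targets of amino acid synthesis were lower. Of the 31 genes, 26 had a mean of at least 1 FPKM and were tested, and 5 were not. With limma over 12213 genes and an adjusted p under 0.05, 6 of the 26 rose (23.1%), 15 fell (57.7%) and 5 did not pass. Over all genes tested 59.4% passed, made up of 29.4% higher and 30.0% lower, each as a share of all genes tested. Changes of at least 2-fold were found for 2 members that rose and 10 that fell, where 9.48% and 8.34% of all genes did so (17.8% in either direction). NUPR1, among the 15 and the 10 that fell, met the filter of 1 FPKM only through the ZsGreen-negative group. The median log2 fold change was -0.67 over the 26 and 0.0040 over all genes tested. No value of one group lay within the range of the other for 23 of the 26, against 67.6% of all genes. With replicate 1 alone standing for the positive group, the median log2 fold change was -0.70 over the 26 and 0.0082 over all genes tested. With each library rescaled to a sum of 1000000, which shifted the median of all genes to 0.14, 6 rose and 13 fell, the calls of PSPH and EIF2AK3 being lost. Over all 12213 genes tested, 4281 rose and 2609 fell under this rescaling.

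**Figure D1:**
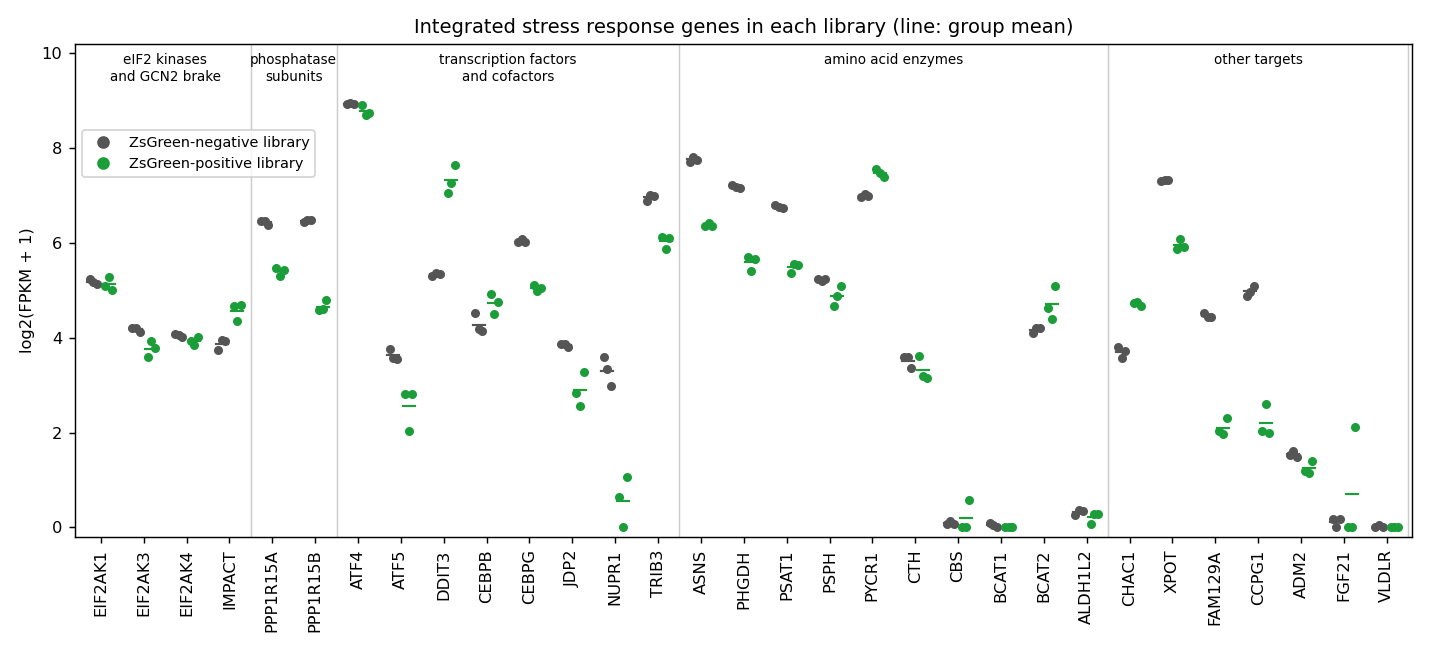
Each point is 1 library, placed by its log2(FPKM + 1) on the vertical axis, for the 31 genes grouped by role, with short lines at the group means. ATF4 stands highest in both groups, DDIT3 and CHAC1 lie higher in the green ZsGreen-positive points, and most other genes that separate lie lower.

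Of the 3 kinases among the members, EIF2AK3 fell and EIF2AK1 and EIF2AK4 did not pass. EIF2AK1 (HRI, the kinase that senses haem and mitochondrial stress) was at 37.0, 35.0 and 34.4 FPKM in ZsGreen-negative and 33.3, 37.9 and 31.4 FPKM in ZsGreen-positive libraries, overlapping ranges. Its log2 fold change was -0.05 ± 0.08 (95% interval -0.25 to 0.14, limma adjusted p = 0.601). EIF2AK4 (GCN2, which senses uncharged tRNA) was at 15.8, 15.5 and 15.2 against 14.4, 13.3 and 15.2 FPKM. The ranges nearly met without crossing, and the log2 fold change was -0.12 ± 0.08 (95% interval -0.30 to 0.07, limma adjusted p = 0.239). EIF2AK3 (PERK, the kinase of the endoplasmic reticulum) was at 17.4, 17.4 and 16.4 against 11.1, 14.3 and 12.8 FPKM. Every positive library was lower than every negative one, and PERK transcripts fell by 0.41 on the log2 scale (SE 0.10, limma adjusted p = 0.0110). IMPACT, which restrains GCN2 by competing for its activator, was at 12.4, 14.4 and 14.3 against 24.6, 19.4 and 24.8 FPKM. It rose without overlap, by 0.70 ± 0.12 on the log2 scale (limma adjusted p = 0.00158).

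Both subunits that bring protein phosphatase 1 to eIF2 fell, the constitutive one further than the inducible one. PPP1R15A (GADD34, induced by the response itself) was at 87.5, 87.5 and 82.4 FPKM in ZsGreen-negative and 43.7, 38.8 and 42.0 FPKM in ZsGreen-positive libraries. All positive libraries lay far below the lowest negative one, with a log2 fold change of -1.03 ± 0.07 (limma adjusted p = 1.56e-05). PPP1R15B (CReP, which works without stress) was at 85.7, 88.0 and 88.2 against 22.9, 23.2 and 26.8 FPKM. The groups lay far apart, with a log2 fold change of -1.81 ± 0.07 (limma adjusted p = 2.53e-06). Within a library, the FPKM of PPP1R15A was 1.02, 0.994 and 0.934 times that of PPP1R15B in ZsGreen-negative and 1.90, 1.67 and 1.57 times in ZsGreen-positive libraries. The log2 ratio, on FPKM + 1, differed by 0.77 between the groups (two-sided exact permutation p = 0.1, adjusted p = 0.1125 over 9 ratios); 3 libraries against 3 cannot give a smaller p.

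ATF4 was the most abundant of the 31 transcripts in every library, at 489.5, 492.6 and 487.9 FPKM in ZsGreen-negative and 481.0, 416.0 and 429.9 FPKM in ZsGreen-positive libraries. The groups did not overlap, but positive replicate 1 was close to the negative range and the log2 fold change of -0.15 ± 0.07 did not pass (95% interval -0.31 to 0.0067, limma adjusted p = 0.0892). Without positive replicate 1 it passed at -0.21 (adjusted p = 0.00512), with quantile normalisation at -0.55 (adjusted p = 2.62e-05), and after rescaling to a common sum it was at 0.03 (adjusted p = 0.682). On average ATF4 stood at percentile 98.4 of the tested genes in ZsGreen-negative and 97.9 in ZsGreen-positive libraries. GENCODE names 4 pseudogenes of ATF4, 4 each of ASNS and PSAT1 and 1 each of PSPH and XPOT, and how the authors treated fragments that match both is not given in the sources used here.

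DDIT3, which encodes CHOP, moved most upward of the tested members. It was at 38.6, 40.5 and 39.9 FPKM in ZsGreen-negative and 131.7, 152.7 and 200.7 FPKM in ZsGreen-positive libraries. The negative libraries were nearly equal while the positive ones spread, the lowest of them more than 3 times the highest negative one. The mean rose from 39.7 ± 0.937 to 161.7 ± 35.4 FPKM, a ratio of 4.08, with a log2 fold change of 1.98 ± 0.14 (limma adjusted p = 2.5e-05). Per ATF4 transcript, the FPKM of DDIT3 was 0.0789, 0.0821 and 0.0818 in ZsGreen-negative and 0.274, 0.367 and 0.467 in ZsGreen-positive libraries. The groups did not overlap in this ratio, whose log2 value on FPKM + 1 differed by 2.13 (exact permutation test, two-sided, p = 0.1, adjusted p = 0.1125). In GENCODE, 8.03% of the exon length of DDIT3 is shared with another annotated gene on the same strand, and 4.74% overlaps MARS, the methionyl-tRNA synthetase gene on the opposite strand, which fell.

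The other ATF and C/EBP factors went different ways. ATF5, a relative of ATF4 under the same translational control, was at 12.49, 10.98 and 10.76 FPKM in ZsGreen-negative and 6.06, 3.09 and 6.04 FPKM in ZsGreen-positive libraries. It fell without overlap (log2 fold change -1.08 ± 0.22, limma adjusted p = 0.00396), and 21.9% of its exon length overlaps NUP62 on the opposite strand. CEBPG, a C/EBP protein that pairs with ATF4 at CARE elements, was at 64.0, 66.6 and 64.1 against 33.4, 30.7 and 32.2 FPKM. Both groups were tight and apart, with a log2 fold change of -0.99 ± 0.06 (limma adjusted p = 1.22e-05). CEBPB, the C/EBP beta factor of inflammation and differentiation, was at 21.9, 17.1 and 16.5 against 29.4, 21.6 and 26.0 FPKM. Its highest negative library was above its lowest positive one. It rose by 0.45 ± 0.14 (limma adjusted p = 0.0291), but it missed the threshold without any one of ZsGreen-negative replicates 2 and 3 and ZsGreen-positive replicates 1 and 3 (adjusted p = 0.0943, 0.102, 0.0847 and 0.0714) and with no filter on low genes (adjusted p = 0.0572). CEBPB was at 0.342, 0.257 and 0.258 times the FPKM of CEBPG in ZsGreen-negative and at 0.878, 0.702 and 0.807 times in ZsGreen-positive libraries, without overlap.

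The cofactors and feedback regulators of this group fell. JDP2, a small leucine zipper repressor that can bind CHOP, was at 13.6, 13.7 and 13.0 FPKM in ZsGreen-negative and 6.14, 4.87 and 8.68 FPKM in ZsGreen-positive libraries. It fell without overlap, the positive libraries spreading more (log2 fold change -0.96 ± 0.18, limma adjusted p = 0.00242). TRIB3, a pseudokinase induced by ATF4 and CHOP that feeds back on ATF4, was at 117.8, 127.8 and 126.2 against 68.7, 57.5 and 68.0 FPKM. It fell by 0.93 on the log2 scale (SE 0.08, limma adjusted p = 7.01e-05), the opposite direction to DDIT3. NUPR1, a small stress-induced chromatin protein, was at 11.1, 9.20 and 6.90 FPKM in ZsGreen-negative libraries and listed at 0.551, 0 and 1.09 FPKM in ZsGreen-positive ones. Every positive library was far below every negative one. The ZsGreen-positive mean was 0.546 FPKM, so NUPR1 met the filter of 1 FPKM only through the ZsGreen-negative group, at 9.06. Its direction and its low percentile are therefore bound to the filter. NUPR1 went from percentile 48.4 of the tested genes to percentile 2.44. Its log2 fold change was -2.74 ± 0.29 (limma adjusted p = 0.000163) and ranged from -4.40 to -1.34 over the alternative settings that could test it, the lowest with a pseudocount of 0.1 and the highest with one of 5.

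Of 7 tested enzymes of amino acid metabolism, ASNS, PHGDH, PSAT1 and PSPH fell, PYCR1 and BCAT2 rose and CTH did not pass. ASNS, asparagine synthetase and the textbook ATF4 target, was at 209.4, 224.7 and 214.7 FPKM in ZsGreen-negative and 80.9, 84.3 and 80.6 FPKM in ZsGreen-positive libraries. The groups were each tight and far apart, with a log2 fold change of -1.39 ± 0.05 (limma adjusted p = 2.12e-06). In GENCODE, 79.7% of its exon length is shared with another annotated gene on the same strand, so fragments could have been assigned to either if the authors' annotation held both. ASNS was at 0.428, 0.456 and 0.440 times the FPKM of ATF4 in ZsGreen-negative and at 0.168, 0.203 and 0.188 times in ZsGreen-positive libraries.

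The serine pathway runs through PHGDH, PSAT1 and PSPH in that order. PHGDH, its first enzyme, was at 148.5, 143.4 and 142.9 FPKM in ZsGreen-negative and 51.1, 41.7 and 49.3 FPKM in ZsGreen-positive libraries. It fell without overlap (log2 fold change -1.60 ± 0.08, limma adjusted p = 6.1e-06). PSAT1, the aminotransferase of the next step, was at 110.0, 108.0 and 105.2 against 40.0, 46.4 and 45.6 FPKM. It fell less far than PHGDH (log2 fold change -1.28 ± 0.07, limma adjusted p = 8.65e-06). PSPH, the phosphatase of the last step, was at 37.0, 35.9 and 36.6 against 24.6, 28.4 and 33.0 FPKM. Its fall of 0.34 on the log2 scale (SE 0.10, limma adjusted p = 0.0245) was the smallest of the pathway, without overlap. It missed the threshold without any one negative library (adjusted p = 0.0625 to 0.0770), without ZsGreen-positive replicate 2 (adjusted p = 0.0524) and after rescaling to a common sum (adjusted p = 0.324).

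PYCR1, which makes proline in mitochondria, was at 124.2, 129.5 and 127.2 FPKM in ZsGreen-negative and 188.6, 177.1 and 166.2 FPKM in ZsGreen-positive libraries. It rose without overlap, by 0.48 ± 0.06 (limma adjusted p = 0.000486). BCAT2, the mitochondrial branched-chain aminotransferase, was at 16.1, 17.4 and 17.4 against 23.7, 19.9 and 33.2 FPKM. It rose by 0.54 ± 0.17 (limma adjusted p = 0.0284), with positive replicate 3 well above the others. The call of BCAT2 was lost without any one negative library (adjusted p = 0.0634 to 0.0870), without ZsGreen-positive replicate 1 (adjusted p = 0.0549) and with no filter (adjusted p = 0.0589). CTH, which makes cysteine from cystathionine, was at 11.11, 11.04 and 9.23 against 11.2, 8.13 and 7.85 FPKM, overlapping ranges. Its log2 fold change was -0.20 ± 0.15 (95% interval -0.54 to 0.15, limma adjusted p = 0.277). It was at -0.35 without positive replicate 1 (adjusted p = 0.0316), and at 0.10 with that replicate alone for its group.

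Of the other targets, CHAC1 rose like DDIT3, XPOT, FAM129A and CCPG1 fell like ASNS, and ADM2 did not pass. CHAC1, which degrades glutathione and lies downstream of ATF4 and CHOP, was at 13.0, 10.9 and 12.2 FPKM in ZsGreen-negative and 25.5, 25.9 and 24.4 FPKM in ZsGreen-positive libraries. The positive libraries were close together and well above the negative ones, with a log2 fold change of 1.02 ± 0.09 (limma adjusted p = 5.38e-05). XPOT, the export receptor of tRNA, was at 157.9, 159.5 and 160.0 against 57.6, 67.3 and 59.2 FPKM. It fell without overlap (log2 fold change -1.36 ± 0.07, limma adjusted p = 5.7e-06).

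FAM129A and CCPG1 fell furthest of the targets in this group. FAM129A (also NIBAN1), a stress-induced cytosolic protein, was at 21.9, 20.8 and 20.6 FPKM in ZsGreen-negative and 3.08, 2.89 and 3.94 FPKM in ZsGreen-positive libraries. It fell 6.38-fold in the means (log2 fold change -2.37 ± 0.11, limma adjusted p = 4.26e-06), from percentile 71.7 to 21.4 of the tested genes. CCPG1, a receptor for autophagy of the endoplasmic reticulum, was at 28.4, 30.2 and 33.0 against 3.08, 5.03 and 2.95 FPKM. It fell 8.29-fold (log2 fold change -2.78 ± 0.17, limma adjusted p = 1.22e-05). Of its exon length, 48.4% is shared with the readthrough gene DYX1C1-CCPG1, listed at 2.01, 2.17 and 0.632 against 0, 1.48 and 2.78 FPKM, so fragments could have been assigned to either. ADM2, an adrenomedullin-like peptide hormone, was low at 1.86, 2.06 and 1.80 against 1.29, 1.21 and 1.63 FPKM, with a log2 fold change of -0.29 ± 0.15 (limma adjusted p = 0.132).

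**Figure D2:**
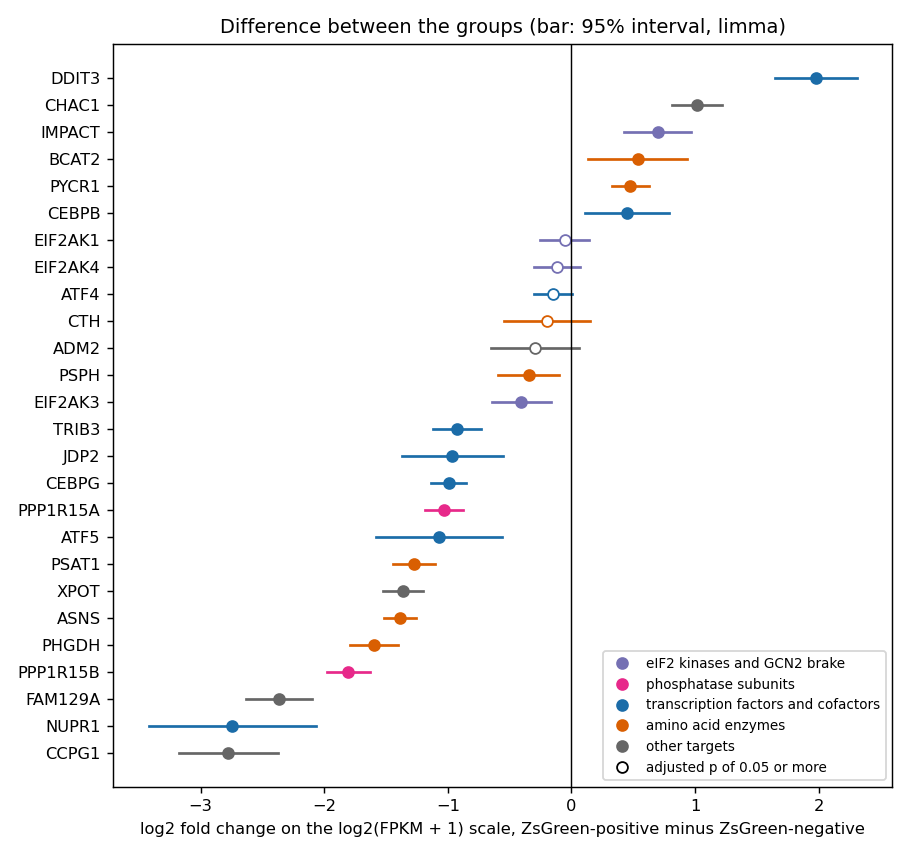
Log2 fold change of each of the 26 tested genes on the horizontal axis, ZsGreen-positive minus ZsGreen-negative, with limma's 95% interval and coloured by role. DDIT3 and CHAC1 are the only genes at or above 1, and 10 genes lie at or below -1, down to -2.78 for CCPG1.

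The 5 untested members were close to absent. BCAT1, the cytosolic branched-chain aminotransferase, was at 0.0616, 0.0324 and 0.0106 FPKM in ZsGreen-negative libraries and listed at 0 in all ZsGreen-positive ones. ALDH1L2, a mitochondrial folate enzyme, was at 0.190, 0.282 and 0.275 against 0.0526, 0.223 and 0.217 FPKM. CBS, which makes cystathionine, was at 0.0429, 0.0903 and 0.0443 against 0, 0 and 0.488 FPKM. FGF21, a hormone secreted under amino acid stress, was at 0.133, 0 and 0.137 against 0, 0 and 3.33 FPKM, so that a single positive library held nearly all of its signal. VLDLR, a lipoprotein receptor, was at 0.0291 FPKM in ZsGreen-negative replicate 2 and listed at 0 elsewhere. ADM2, with a mean of 1.64 FPKM over all libraries, lay just inside the filter and FGF21, with 0.599, just outside it.

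Of the 9 ratios compared within libraries, 8 reached the smallest p that the design allows (exact permutation test, two-sided, p = 0.1, adjusted p = 0.1125) and CTH to CBS did not (p = 0.5). A ratio within a library does not depend on how libraries were scaled to each other, apart from the pseudocount. That does not hold for the ratios with BCAT1 and CBS, which were at most 0.0616 and 0.488 FPKM. Those ratios are set largely by the other gene and the pseudocount, and BCAT1 to BCAT2 is among the 8. The ratio of EIF2AK3 to EIF2AK4 differed by -0.29 and that of PSAT1 to PHGDH by 0.32 on the log2 scale.

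Genes next to these in the pathway were taken from 8 further lists. The counts of each list stand beside 29.4% of all genes tested that rose and 30.0% that fell. Enzymes that load amino acids onto tRNA in the cytosol were in 2 lists, and the difference between the lists was not tested. All 12 synthetases commonly listed as ATF4 targets fell (median log2 fold change -0.64; 8 fell after rescaling to a common sum), while of 8 others 4 rose, 0 fell and 4 did not pass (median 0.25; with quantile normalisation 1 of these fell). WARS, which loads tryptophan and is also induced by interferon, fell from 114.6 ± 1.36 to 35.0 ± 2.47 FPKM (log2 fold change -1.68 ± 0.07, limma adjusted p = 2.12e-06). SARS, for serine, fell from 253.2 ± 2.36 to 138.7 ± 6.85 FPKM and TARS, for threonine, from 303.9 ± 7.56 to 174.0 ± 4.52 FPKM. AARS, for alanine, fell from 152.5 ± 3.37 to 84.7 ± 7.97 FPKM. Among the others VARS, for valine, rose from 9.90 ± 0.212 to 25.3 ± 1.62 FPKM (log2 fold change 1.27 ± 0.08, limma adjusted p = 1.25e-05). The subunits of the phenylalanine enzyme rose together, FARSA from 36.1 ± 1.23 to 68.2 ± 6.37 FPKM and FARSB from 16.8 ± 1.28 to 33.2 ± 3.07 FPKM. KARS, for lysine, rose from 107.1 ± 3.44 to 137.4 ± 7.33 FPKM.

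CARE matches were in 7 of 10 promoters of the first list and 0 of 6 of the second, against 4.46% of all symbols. The first list holds genes commonly listed as ATF4 targets, so these shares describe the lists and test nothing. For AARS, which fell, the match is at chr16:70289675-70289704 on the minus strand (-187 to -180) and is shown beside that of HERPUD1, which rose, at chr16:56931955-56931984 on the plus strand (-176 to -169).
AARS: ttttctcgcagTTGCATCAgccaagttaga
HERPUD1: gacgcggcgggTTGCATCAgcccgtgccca
The 8 bases of the match are the same in both. HERPUD1 was chosen after its values were seen, and whether the element bears on direction was not tested.

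Amino acid transporters listed as ATF4 targets went the way of the synthetases so listed, not of the other synthetases. Of 9 tested transporters among 10 ATF4 targets, 8 fell, 0 rose and 1 did not pass (median -1.11). SLC7A11, the cystine carrier, fell from 76.9 ± 0.604 to 21.2 ± 3.60 FPKM (log2 fold change -1.82 ± 0.12, limma adjusted p = 1.68e-05). SLC38A2, a sodium-coupled carrier of small neutral amino acids, fell from 749.8 ± 8.51 to 302.0 ± 19.2 FPKM. SLC7A5, the large neutral amino acid carrier, fell from 160.0 ± 13.0 to 70.0 ± 2.64 FPKM, and SLC3A2, the chain it pairs with, from 439.3 ± 4.35 to 193.8 ± 11.3 FPKM.

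The list of one-carbon and proline enzymes next to the members was mixed, with more that rose than fell. Of its 12 genes, 7 rose, 3 fell and 2 did not pass (median 0.55). The 7 include PCK2, and the 2 are GOT1 and GPT2. MTHFD2 fell from 340.0 ± 6.37 to 248.7 ± 10.7 FPKM and MTHFD1L from 50.7 ± 1.06 to 35.1 ± 3.44 FPKM. MTHFD1 rose from 22.1 ± 0.392 to 39.6 ± 5.57 FPKM. These 6 genes were named after their values were seen. SHMT2, the mitochondrial serine hydroxymethyltransferase, rose from 40.9 ± 0.972 to 97.0 ± 15.3 FPKM, and SHMT1, its cytosolic relative, from 4.53 ± 0.668 to 18.3 ± 3.38 FPKM (log2 fold change 1.80 ± 0.15, limma adjusted p = 5.23e-05). PYCRL, the cytosolic relative of PYCR1, rose from 1.97 ± 0.274 to 9.21 ± 1.10 FPKM. Serine hydroxymethyltransferases thus rose in the libraries in which PHGDH and PSAT1 fell.

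Among 17 stress effectors commonly listed downstream of ATF4 or CHOP, 13 fell, 1 rose and 3 did not pass (median -0.87). Whether ATF4 or CHOP set their levels in these cells was not tested. The one that rose, chosen by name after its values were seen, was HERPUD1, a protein of degradation at the endoplasmic reticulum, which went from 36.7 ± 1.31 to 87.9 ± 3.71 FPKM (log2 fold change 1.24 ± 0.06, limma adjusted p = 4.98e-06). ATF3, a repressor induced by ATF4, fell from 62.0 ± 4.68 to 17.1 ± 1.39 FPKM. TNFRSF10B, a death receptor often listed as a CHOP target, fell from 192.4 ± 2.80 to 58.9 ± 3.37 FPKM, the opposite direction to DDIT3. The autophagy genes MAP1LC3B and SQSTM1 had log2 fold changes of -2.69 ± 0.09 and -2.50 ± 0.05.

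The eIF2 machinery itself was mixed. Of 19 listed genes, 10 rose, 7 fell and 2 did not pass (median 0.31). Most are for subunits of eIF2 and its exchange factor eIF2B, another kinase, activators and the phosphatase. EIF2A, EIF2D, DNAJC3 and NCK1 are also on the list and are none of these. Under the rescaling to a common sum 2 fell, and without ZsGreen-negative replicate 3 4 fell. EIF2B5, the catalytic subunit of eIF2B, rose from 13.5 ± 0.340 to 25.9 ± 6.04 FPKM, and its partner EIF2B3 from 5.15 ± 0.224 to 9.14 ± 0.584 FPKM. KIAA0141 (DELE1), which carries mitochondrial stress to HRI, rose from 6.32 ± 0.775 to 12.4 ± 2.77 FPKM. EIF2AK2 (PKR), the eIF2 kinase that senses double-stranded RNA and is induced by interferon, fell from 23.1 ± 1.88 to 9.82 ± 1.39 FPKM (log2 fold change -1.16 ± 0.12, limma adjusted p = 0.000124).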

How the data were processed

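The authors deposited FPKM values, 1 table a library, covering 26255 gene symbols. Per the labels' protocols, RNA was extracted with TRIzol and a miRNeasy kit, and libraries were made with a stranded poly(A) kit (TruSeq Stranded mRNA). Cuffdiff 2.2.1, TopHat2 2.1.1, SAMtools 0.1.18, Bowtie2 2.2.8 and build hg19 are named in the submitters' processing notes. Not given in the sources used here: tool settings, annotation, library scaling and strand handling. Because FPKM is relative to a library total, very abundant RNAs can move the values of other genes.

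R 4.3.3 with limma 3.58.1 tested the difference between groups on log2(FPKM + 1), with a mean-variance trend, over the 12213 genes with a mean of at least 1 FPKM, with Benjamini-Hochberg adjustment and a threshold of 0.05 (4 residual and 3.22 prior degrees of freedom). FPKM are not counts, so no count model was run. Ratios were compared with exact permutation tests in SciPy 1.17.1. The fit was tested on simulated data. Depth was estimated from the spacing of low values of FPKM times length in 2137 genes with 1 GENCODE transcript of at least 1000 nt. Promoters came from RefSeq, matched by symbol. Members and lists were chosen with earlier results of these data known. By the naming rule every member is accounted for, members past the threshold with an absolute log2 fold change of at least 1 and ATF4 get every library's value, and of each further list up to 4 genes past the threshold with the largest change are named, except 1 that is not reported here. Library values of the other members, beyond the rule, are also given. Alternatives were other pseudocounts (0.1 and 5), filters (none and 5 FPKM), scalings, no trend, a replicate block and leaving out libraries.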

Additional observations from a re-analysis of the deposited data

How the results depend on the processing

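Of 17 alternative settings, 1 kept only 1 positive library, and its counts are not given. Over the others, the members gave 4 to 6 that rose and 13 to 17 that fell. Over all genes 2933 to 4327 were higher and 2609 to 4325 lower. The fits differ in genes tested: the 2933 is out of 8555 with the filter of 5 FPKM, and the 4325 out of 18934 with no filter. Those 2 fits tested 24 and 31 members, and the rest tested 26 members and 12213 genes. Without any one library, 4 to 6 members were higher and 14 to 17 lower. Rescaling to a sum of 1000000 moved the split over all genes to 4281 higher and 2609 lower (62.1% higher, against 49.5%), and rescaling without small RNA genes to 4327 and 2787 (60.8%), with the median of all genes at 0.14 and 0.15. Under these 2 rescalings, ATF4 was at 0.0281 and 0.0105, EIF2AK1 at 0.12 and 0.10 and EIF2AK4 at 0.0493 and 0.0358 on the log2 scale, the reverse of their direction with the deposited values, none passing. EIF2AK1 ranged from -0.13 to 0.0036 without any one library, the highest without ZsGreen-positive replicate 3, and CTH was at 0.10 with positive replicate 1 alone for its group, a fit whose spread comes from the negative libraries only. EIF2AK3 lost its call under both rescalings (adjusted p = 0.214 and 0.138), as did PSPH (adjusted p = 0.324 and 0.243). ADM2 passed with limma without a trend (adjusted p = 0.0372). The cause was not tested. With the replicate number as a replicate block, 6 members were higher and 15 lower, 3433 and 3482 genes over the whole table and 28 and 57 genes of the further lists. Same-numbered libraries did not deviate together (correlation of deviations across genes -0.0302 to -0.0209), so the numbers were not taken as pairs. No ratio between members changed direction under another pseudocount or without any one library. Of the members, 5 were too low to test, and ratios with CBS and BCAT1 rest on the pseudocount.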

Other observations

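The arms of the unfolded protein response that run through ATF6 and XBP1 were also mixed. Of 17 such genes, 6 rose, 7 fell and 4 did not pass (median log2 fold change -0.01, limma), where 29.4% of all genes tested rose and 30.0% fell. SDF2L1, a chaperone cofactor, rose from 13.5 ± 0.888 to 79.8 ± 10.3 FPKM (log2 fold change 2.47 ± 0.11, limma adjusted p = 2.93e-06), and CRELD2, a secreted stress protein, rose from 13.1 ± 1.00 to 38.6 ± 6.09 FPKM. CALR, a lectin chaperone, had a log2 fold change of 1.30 ± 0.06. ATF6, the sensor itself, fell from 27.6 ± 1.00 to 9.39 ± 1.35 FPKM (log2 fold change -1.47 ± 0.11). HSPA5 (BiP), named after its values were seen, fell from 417.4 ± 8.77 to 175.9 ± 6.73 FPKM. The ER stress element (ERSE), searched on either strand, was found in 6 of these 17 promoters and in 0.0916% of all symbols in the RefSeq table. Genes of this list are in part known for this element, so the share describes the list and tests nothing. Of the 6, CALR, CRELD2 and PDIA6 rose, HSPA5 and XBP1 fell and HSP90B1 did not pass. These 6 were named after their values were seen. The element was found in 0 of the 25 promoters of the integrated stress response genes, which says little for an element this rare.

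Of 13 tested leucine zipper partners of ATF4 and factors of its turnover, 9 fell, 0 rose and 4 did not pass (median -0.59). Over all genes tested, 30.0% fell and 29.4% rose. CEBPD, the C/EBP delta factor, fell from 22.0 ± 1.92 to 3.29 ± 1.40 FPKM (log2 fold change -2.47 ± 0.22, limma adjusted p = 6.49e-05), while CEBPB rose. JUN fell from 88.0 ± 2.13 to 24.8 ± 6.45 FPKM, FOSL1 from 20.6 ± 3.76 to 5.10 ± 2.33 FPKM and NFE2L2, the factor NRF2, from 52.1 ± 1.40 to 23.8 ± 0.809 FPKM. Under several settings 1 to 3 genes of this list rose, 2 of them under the rescaling to a common sum.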
